A study of Mus musculus with 18 samples.

Results

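The heat shock chaperone genes described here are 10 genes chosen by name, Hspa1a, Hspa1b, Hspa8, Hsph1, Dnajb1, Hsp90aa1, Hsp90ab1, Hspb1, Hspd1 and Hspe1, out of 32285 genes counted in mouse liver. Each of the 10 was among the 13356 genes that passed the filter on low counts. Liver RNA was sequenced from 18 mice, 6 in each of the groups Space, Ground and BDF1, all labelled wild-type and B6D2F1. Space pups were F1 offspring, 10 weeks old, of germline stem (GS) cells kept frozen aboard the International Space Station over 6 months. Ground pups were offspring of the same age and generation whose donor GS cells stayed frozen on Earth meanwhile. GS cells are cultured spermatogonial stem cells. Here they came from the DBA/2 strain and, per the study's methods, from a line with a green fluorescent transgene. In both pup groups they had been thawed and transplanted into testes of W mice, which lack their own spermatogenesis, and the recipients were mated with C57BL/6 females. BDF1 mice were wild-type controls from natural mating, whose age and whose parents' history are not stated, so that donor cell culture, freezing and transplantation distinguish both pup groups from BDF1 together. The pups were not themselves exposed to space, and no litter, collection time or housing is given in the sources used here.

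Heat shock proteins keep other proteins folded. HSP70 proteins bind exposed stretches of unfolded clients, HSP40 (DNAJ) proteins deliver the clients, HSP110 proteins exchange the nucleotide, and HSP90 proteins take over late folding of kinases and steroid receptors. Small heat shock proteins hold unfolded clients, and a chaperonin barrel with a lid folds proteins in mitochondria. The inducible members are switched on by heat shock factor 1 (HSF1), which binds heat shock elements, rows of the unit GAA in alternating orientation, and in liver several of them are also known to vary over the day with temperature and feeding.

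The promoters are shown because such elements were searched for there. RefSeq start sites on GRCm38.p6, the assembly called mm10 in the files, were matched for 7 of the 10 members: Dnajb1, Hspa1a, Hspa1b, Hspb1, Hspd1, Hspe1 and Hsph1. Facing pairs of units, spelled GAANNTTC or TTCNNGAA (each reads the same on both strands), lay within 250 bases upstream of the start in 6 of these 7, against 12.8% of 32817 windows of the same length, and were not in the Dnajb1 windows. Some members have several starts: counted by window, as the share over all windows is, 7 of 10 held a match. For Hspd1 the match lay before an internal start and not before the start of the gene, and there, as for Hspe1, all 250 bases of the window lie in annotated exons. The Hsph1 match precedes both RefSeq starts but lies inside the gene as GENCODE annotates it, which starts at base 149636376 of the minus strand, and the part of its windows outside exons held no match. A row of 3 alternating units was found in Hspd1 and Hspe1, whose divergent promoters share the same bases, against 0.466% of all windows. In the following lines the capitals mark the matched units, and each sequence reads 5′ to 3′ on the strand of its gene. Hspa1b is shown whole because it had the largest changes of the well-counted members, Hspb1 because its levels followed another pattern, and the others as short windows around the match.
Hspa1b, chr17:34959239-34959488, minus strand, the 250 bases before the start: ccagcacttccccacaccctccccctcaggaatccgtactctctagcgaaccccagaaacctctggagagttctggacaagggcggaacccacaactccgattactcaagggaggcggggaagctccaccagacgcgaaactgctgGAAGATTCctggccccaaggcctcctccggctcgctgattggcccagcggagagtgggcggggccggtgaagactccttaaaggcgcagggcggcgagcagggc
Hspb1, chr5:135887669-135887918, plus strand, the 250 bases before the start: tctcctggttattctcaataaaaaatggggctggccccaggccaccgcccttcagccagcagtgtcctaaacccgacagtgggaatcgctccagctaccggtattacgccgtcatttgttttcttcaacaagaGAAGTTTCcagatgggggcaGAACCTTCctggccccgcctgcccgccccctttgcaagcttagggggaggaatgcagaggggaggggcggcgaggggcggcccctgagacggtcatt
Hspe1, chr1:55088053-55088082, plus strand: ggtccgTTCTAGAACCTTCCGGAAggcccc
Hsph1, chr5:149636351-149636380, minus strand: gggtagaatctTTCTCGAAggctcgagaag
The Hspa1b match lay at bases -104 to -97. The corresponding Hspa1a promoter, chr17:34972157-34972406, held the same match at the same place and was identical to that of Hspa1b at 247 of 250 bases. Hspb1 held matches at -117 to -110 and -97 to -90, and the row in Hspe1 ran from -89 to -72. A match describes letters only and is no evidence that a factor binds there.

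Total counts ranged from 15407450 to 20562351 per library, so that 3 counts, the most that a count of 0 allows, came to between 0.134 and 0.234 CPM (the count scaled to the library size, adjusted by TMM factors). These limits cover counting error only. Sex is not labelled, although animals of both sexes were used per the study's methods. Xist had between 0 and 187 counts in the libraries numbered 1 to 3 and between 12218 and 21557 in those numbered 4 to 6, and 4 summed Y-linked genes went the other way, so the groups were compared within replicates 1 to 3 and within replicates 4 to 6. Liver identity was clear: 8 hepatocyte markers summed to between 61414 and 378868 CPM. The 6 pup libraries numbered 4 to 6 stood apart, with Alb, the albumin gene, at 17.6% to 24.1% of counts against 4.47% to 8.03% in the other 12, and Serpina6 at 3.43%, 3.41% and 2.18% of counts in Space replicate 4, Ground replicate 5 and Ground replicate 6 and at most 0.107% elsewhere. In the same 6 libraries 7 erythroid markers summed to between 102 and 719 CPM, against 32.3 to 88.4 CPM in BDF1 replicates 4 to 6. In replicates 1 to 3 of the groups they summed to between 182 and 364 CPM, inside the range of these pups. In this sum BDF1 replicates 4 to 6 were thus the low ones. In bulk tissue, fewer cells of a type and less RNA per cell cannot be told apart.

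Per kilobase of exon, which takes out differences in length between genes, Hsp90ab1 was the most abundant member in each group and replicate set, at 227 ± 5.10 CPM per kb (SD, n = 3) in BDF1 replicates 4 to 6. Hspd1 followed there at 139 ± 6.21, Hspa8 at 82.3 ± 5.12 and Hspe1 at 68.1 ± 8.01 (SD, n = 3). Hsp90aa1, the inducible HSP90, reached 19.3 ± 1.58. Hspb1, Hsph1 and Dnajb1 lay at 6.00 ± 0.615, 4.86 ± 0.497 and 4.65 ± 0.381, and Hsph1 and Dnajb1 did not differ beyond their spread. The inducible HSP70 genes were lowest, Hspa1b at 0.557 ± 0.171 and Hspa1a at 0.0529 ± 0.0209. How reads with several places were counted is not stated, and Hspa8 and Hsp90ab1 share 38.6% and 3.44% of their 50-base stretches with other transcripts, so orders between members rest on an unknown setting. In Space replicates 1 to 3 the order changed at several places: Hspa8 stood second with 258 ± 10.4 CPM per kb and Hspa1b sixth with 24.5 ± 7.56, beside Hspb1 at 19.9 ± 3.06 and Hsph1 at 19.7 ± 2.44, all within its spread.

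In replicates 1 to 3, the HSP70 genes Hspa1b and Hspa8 and the HSP110 gene Hsph1 passed the test as higher than in BDF1 mice in both pup groups. Hspa1a, Dnajb1, Hsp90aa1 and Hsp90ab1 passed in Space only. Of the 10 members, 7 passed the test in Space against BDF1, all higher, where 4.64% of all tested genes passed. In Ground against BDF1, 3 members passed, all higher, where 1.92% of genes passed. Leaving out 1 library brought these counts to as few as 3 in Space (without Space replicate 1 or BDF1 replicate 3) and 1 in Ground (without BDF1 replicate 2). Both comparisons share the same 3 BDF1 libraries. The median member difference was 0.85 on the log2 scale in Space and 0.62 in Ground, against -0.004 and 0.009 over all genes. With no overlap between libraries, 8 members lay above BDF1 and 1 below in Space, where 18.5% and 16.6% of all genes did so, and in Ground 6 lay above and 0 below, where 12.2% and 11.7% did so.

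**Figure D1:**
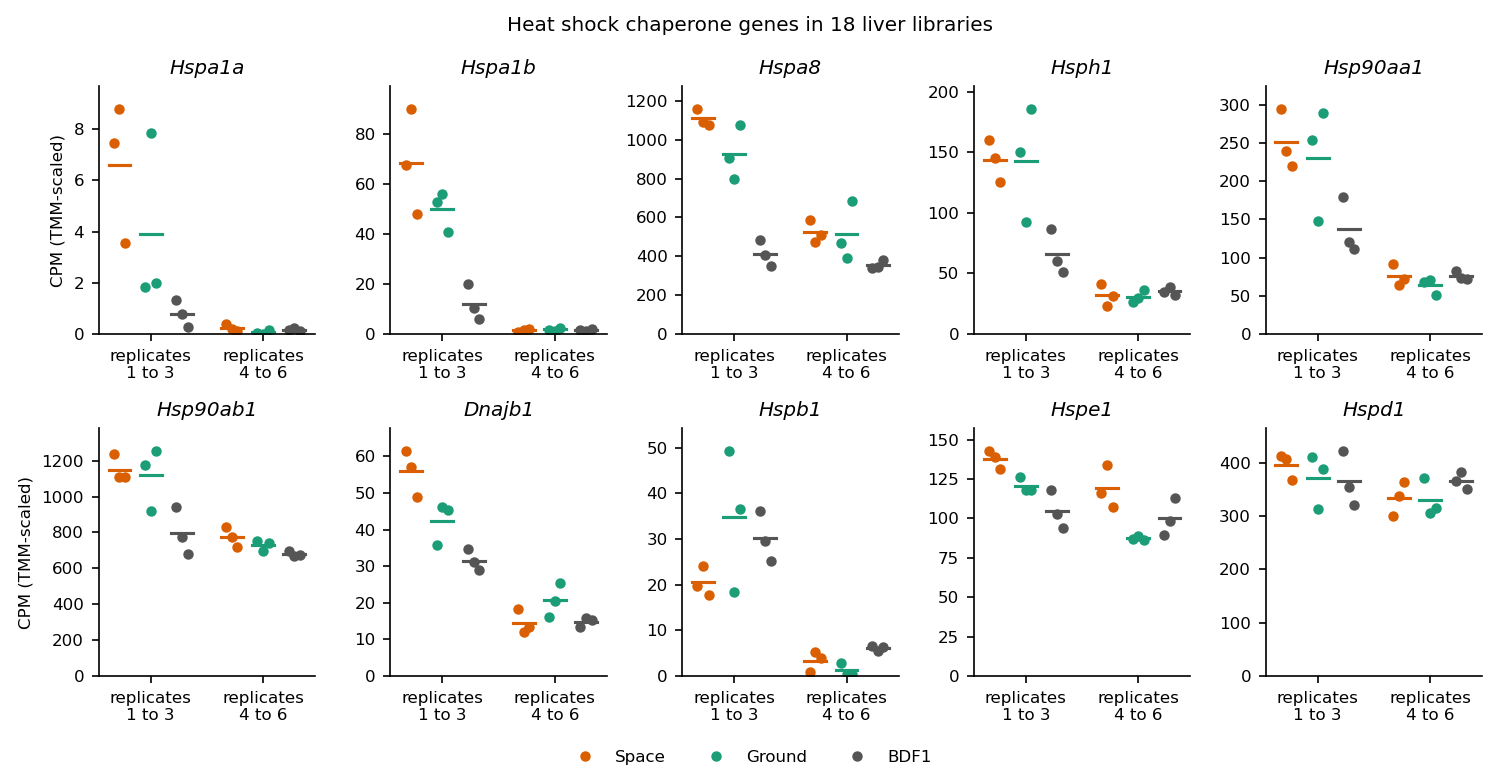
Level of each member in CPM (y axis, from 0, a scale for each gene) in every library, with replicates 1 to 3 on the left and 4 to 6 on the right of each panel; points are libraries and lines are means of 3. Hspa1b reached 48.0 to 90.4 CPM in Space replicates 1 to 3 and at most 2.56 CPM in any library of replicates 4 to 6, whereas Hspd1 stayed between 301 and 423 CPM throughout.

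Hspa1b (chromosome 17, 34956436 to 34959238, minus strand, mm10) encodes an inducible cytosolic HSP70. It stood at 67.8, 90.4 and 48.0 CPM in Space replicates 1 to 3, at 53.1, 56.2 and 41.1 CPM in Ground and at 20.1, 10.4 and 5.90 CPM in BDF1. Every pup library was above every BDF1 library. The difference in log2 was 2.50 ± 0.353 (SE, adjusted p = 0.000817) for Space against BDF1 and 2.04 ± 0.349 (SE, adjusted p = 0.00815) for Ground against BDF1, a mean ratio of 5.67 and 4.14. Without BDF1 replicate 2 the second of these had an adjusted p of 0.063.

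Hspa1a (chromosome 17, 34969190 to 34972156, minus strand), the neighbouring and near-identical HSP70 gene, was counted far less. It had 127, 140 and 66 counts in Space, 38, 149 and 38 in Ground and 28, 14 and 5 in BDF1. The Space libraries lay above those of BDF1, at a log2 difference of 3.05 ± 0.595 (SE, adjusted p = 0.00908). In Ground the difference was 2.29 ± 0.594 (SE, adjusted p = 0.0579), with Ground replicate 2 far above the others. Of all 50-base stretches of Hspa1a transcripts, 58.8% also occur in Hspa1b, so the split of reads between them is uncertain. Summed over both genes, the level was 75.3 ± 23.8 CPM in Space, 54 ± 10.5 CPM in Ground and 12.9 ± 7.77 CPM in BDF1 (SD, n = 3), and Hspa1a made up 3.37% to 12.3% of the sum.

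Hspa8 (chromosome 9, 40800984 to 40810087, plus strand), the HSP70 that cells make at all times was higher in both pup groups. Its levels were 1161, 1094 and 1076 CPM in Space, 904, 799.6 and 1076 CPM in Ground and 485, 406 and 351 CPM in BDF1. The lowest pup was above the highest BDF1 mouse. The log2 difference was 1.42 ± 0.186 (SE, adjusted p = 0.000458) in Space and 1.16 ± 0.184 (SE, adjusted p = 0.00553) in Ground. Both calls held in each of the 18 fits that left out 1 library, as did those of Hspa1a and Hspa1b in Space. Processed copies such as Gm15459 share 38.6% of the 50-base stretches of Hspa8, and 3 small nucleolar RNA genes lie inside it.

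Hsph1 (chromosome 5, 149614287 to 149636376, minus strand), the HSP110 that recharges HSP70, shared no 50-base stretch with another gene. It stood at 159.8, 145 and 125 CPM in Space, 150.4, 92.2 and 186 CPM in Ground and 86.3, 60.2 and 51.3 CPM in BDF1. The groups did not overlap with BDF1, and the mean was 143 CPM in both pup groups. The log2 difference was 1.12 ± 0.247 (SE, adjusted p = 0.0171) in Space and 1.11 ± 0.247 (SE, adjusted p = 0.0278) in Ground. The call in Space was lost without Space replicate 1 or 2 or BDF1 replicate 2 or 3 (adjusted p between 0.0584 and 0.0911), and the call in Ground without Ground replicate 1 or 3 or BDF1 replicate 2 or 3 (adjusted p between 0.0793 and 0.141), with the replicate block (0.0683) or with the 6 libraries compared alone (0.0786).

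Dnajb1 (chromosome 8, 83608193 to 83612653, plus strand), the HSP40 that delivers clients to HSP70, stood at 61.6, 57.1 and 49.0 CPM in Space, 35.8, 46.1 and 45.3 CPM in Ground and 34.6, 31.1 and 28.9 CPM in BDF1. The 3 groups formed steps without overlap. Space exceeded BDF1 by 0.83 ± 0.166 in log2 (SE, adjusted p = 0.0106), which was lost without Space replicate 1 or BDF1 replicate 3 (adjusted p = 0.0501 and 0.0522). For Ground against BDF1 the difference was 0.43 ± 0.165 (SE, adjusted p = 0.211).

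The HSP90 genes differed by smaller factors. Hsp90aa1 (chromosome 12, 110690605 to 110702728, minus strand), the inducible HSP90, was at 295, 239 and 220 CPM in Space, 254, 148 and 289 CPM in Ground and 179, 121 and 111 CPM in BDF1. Space lay above BDF1, while Ground replicate 2 fell inside the BDF1 range. The log2 difference was 0.87 ± 0.229 (SE, adjusted p = 0.0395) in Space and 0.75 ± 0.229 (SE, adjusted p = 0.103) in Ground. Hsp90ab1 (chromosome 17, 45567775 to 45573271, minus strand), its constitutive partner, was at 1235, 1108 and 1107 CPM in Space, 1174, 921 and 1256 CPM in Ground and 939, 776 and 682 CPM in BDF1. Space lay above BDF1 and Ground overlapped with it. Its log2 difference was 0.53 ± 0.137 (SE, adjusted p = 0.0392) in Space and 0.48 ± 0.137 (SE, adjusted p = 0.0826) in Ground. Both Space calls lay close to the threshold: leaving out 1 of Space replicates 1 to 3 or BDF1 replicates 2 to 6 ended each of them (Hsp90aa1, adjusted p between 0.05 and 0.178; Hsp90ab1, between 0.0503 and 0.181), as did leaving out Space replicate 5 for Hsp90ab1 (0.0527) and total-count scaling for both (0.126 and 0.215). The Hsp90ab1 call was also lost with no filter on low counts (0.0739), the replicate block (0.0687) or the 9 libraries of the set (0.0523). Of the 50-base stretches of Hsp90aa1, 47.5% occur in other transcripts.

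Hspb1 (chromosome 5, 135887919 to 135889563, plus strand), the small heat shock protein HSP25, did not follow the others. It was at 19.8, 24.0 and 17.8 CPM in Space, 49.4, 18.5 and 36.7 CPM in Ground and 36.1, 29.5 and 25.1 CPM in BDF1. All Space libraries were below those of BDF1 and the Ground libraries spanned them. The log2 differences were -0.56 ± 0.424 (SE, adjusted p = 0.511) in Space and 0.21 ± 0.418 (SE, adjusted p = 0.861) in Ground. With the 6 compared libraries alone the Space difference passed (adjusted p = 0.0239). Of the 50-base stretches of Hspb1, 48.8% occur in the pseudogene Hsp25-ps1.

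The mitochondrial chaperonin genes did not pass the test. Hspd1 (chromosome 1, 55077835 to 55088243, minus strand), which forms the barrel, stood at 412, 408 and 367 CPM in Space, 411, 314 and 389 CPM in Ground and 423, 355 and 321 CPM in BDF1. These ranges overlapped, and the log2 difference had a 95% interval from -0.17 to 0.39 in Space (adjusted p = 0.704) and from -0.26 to 0.30 in Ground (adjusted p = 0.966). Hspe1 (chromosome 1, 55088132 to 55091307, plus strand), the lid, stood at 143, 139 and 131 CPM in Space, 126, 118 and 118 CPM in Ground and 118, 103 and 93.8 CPM in BDF1. Its log2 difference of 0.39 ± 0.112 in Space missed the threshold (SE, adjusted p = 0.0583), and that of 0.20 ± 0.111 in Ground did too (SE, adjusted p = 0.399). The Space difference passed with DESeq2, limma voom, a mean of at least 5 CPM, the 9 libraries of the set, the 6 libraries compared or BDF1 replicate 1 left out (lowest adjusted p = 0.00295). Of the 50-base stretches of Hspd1, 39.7% occur in other transcripts, and 18.4% of those of Hspe1. Both genes overlap on opposite strands and the strand setting of the counting is not stated, so reads in the overlap may have been assigned to either or neither.

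Space and Ground pups, the comparison that bears on storage in space, did not differ in any member by the test. In replicates 1 to 3, 0 of 10 members passed, where 0.00749% of genes (1 gene) passed, and 1292 genes had an unadjusted p under 0.05. Limma voom with quality weights called 3 members there: Hspa1a, Dnajb1 and Hspb1. Over all runs the number of genes called in this comparison ran from 0 to 483. For Hspa8 the log2 difference between Space and Ground had a 95% interval from -0.12 to 0.65, for Hspa1b from -0.24 to 1.15, for Hsph1 from -0.51 to 0.52 and for Hsp90aa1 from -0.36 to 0.60. Dnajb1 had an unadjusted p of 0.0267 and an interval from 0.05 to 0.75 (adjusted p = 0.454). In replicates 4 to 6, again 0 members passed, where 0.0225% of genes passed and 1852 genes had an unadjusted p under 0.05. Over all runs 0 to 139 genes were called there, and the DESeq2 fit called 1 member, Hspe1. It was at 116, 134 and 107 CPM in Space and 87.2, 88.6 and 86.5 CPM in Ground. In edgeR its log2 difference was 0.45 ± 0.112 (SE, unadjusted p = 0.000977, adjusted p = 0.159). Dnajb1 was on the other side there, at 18.2, 11.9 and 13.5 CPM in Space and 16.2, 20.6 and 25.3 CPM in Ground (-0.51, 95% interval -0.88 to -0.15, unadjusted p = 0.009, adjusted p = 0.227), and its difference between the replicate sets was 0.91 (unadjusted p = 0.00143, adjusted p = 0.367).

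**Figure D2:**
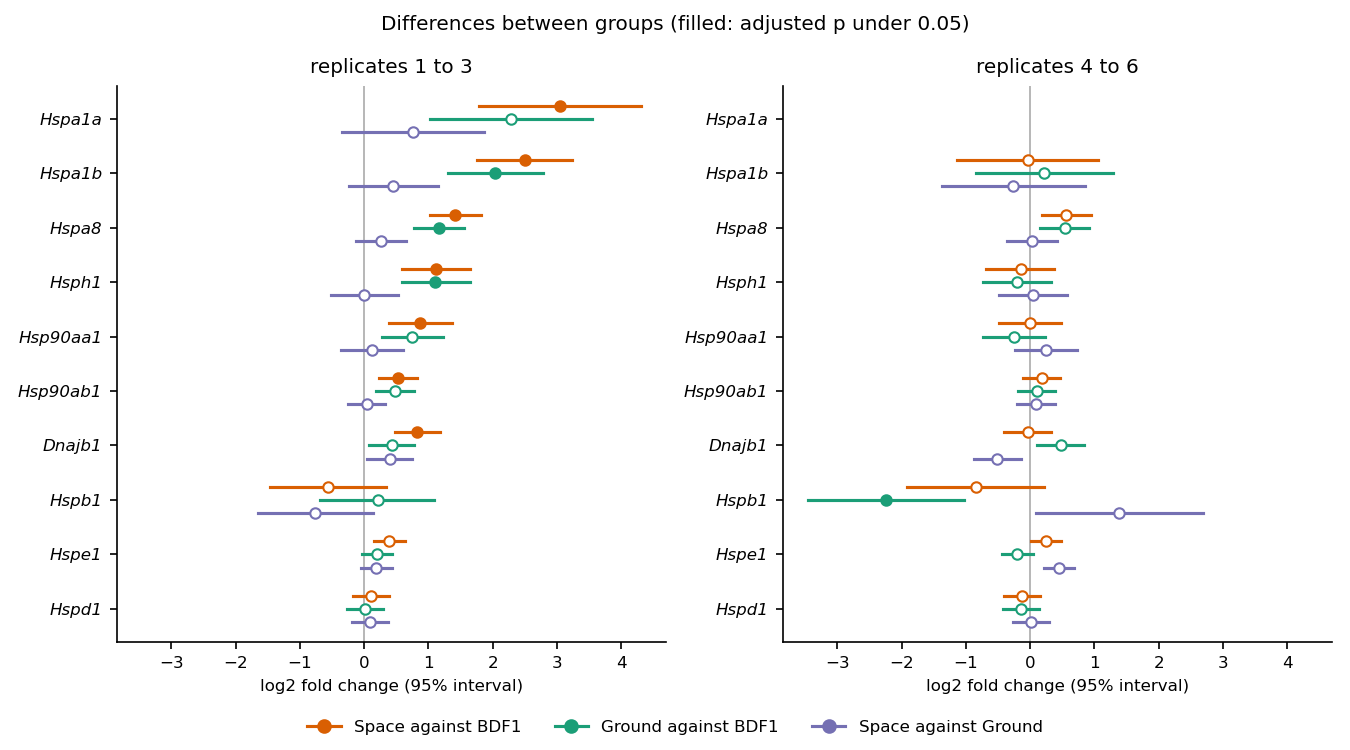
Log2 fold change of each member (x axis, in log2 units, with 95% intervals) between groups in replicates 1 to 3 and 4 to 6; filled points passed the test. Hspa1a is left out on the right because its libraries had 5 counts or fewer. In replicates 1 to 3 the filled points are those of 7 members in Space and 3 in Ground against BDF1, and in replicates 4 to 6 only Hspb1 in Ground.

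In replicates 4 to 6 the counts of members that passed between pups and BDF1 mice were near the share of all genes, and nothing is read from them. For Space against BDF1, 0 of 10 members passed where 11.9% of genes did. Before adjustment 3927 genes had a p under 0.05, among them Hspa8 and Hspe1. For Ground against BDF1 1 member passed where 15.2% of genes did. Hspa1b was at 0.781, 1.44 and 2.14 CPM in Space, 1.52, 1.38 and 2.56 CPM in Ground and 1.67, 1.03 and 1.97 CPM in BDF1. These ranges overlapped, with log2 differences of -0.04 ± 0.52 in Space (SE, adjusted p = 0.964) and 0.22 ± 0.505 in Ground (SE, adjusted p = 0.809). Hspa1a had 5, 3 and 2 counts in Space, 1, 0 and 2 in Ground and 3, 5 and 2 in BDF1, at or near the limit of detection at this depth, so no ratio between groups is given.

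Hspa8 was the member with a difference nearest to the threshold in these animals. It was at 589, 474 and 509 CPM in Space, 467, 389 and 687 CPM in Ground and 339, 345 and 379.6 CPM in BDF1. Every pup was above every BDF1 mouse, with a log2 difference of 0.56 ± 0.183 in Space (SE, adjusted p = 0.0538) and 0.54 ± 0.183 in Ground (SE, adjusted p = 0.0569). Values of these pups moved with the scaling: when scaled by total counts alone, the median gene was lower than in BDF1 by a log2 value of -0.39 in Space and -0.46 in Ground, and over all alternatives the Hspa8 difference ranged from 0.16 to 0.63 in Space and from 0.05 to 0.70 in Ground. The sign of Dnajb1 in these animals also changed with the settings, from -0.45 to 0.09 in Space and from -0.03 to 0.62 in Ground.

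Hspb1 was the member that passed. It was at 2.80, 0.461 and 0.484 CPM in Ground (48, 7 and 7 counts) against 6.65, 5.46 and 6.45 CPM in BDF1, a log2 difference of -2.24 ± 0.576 (SE, adjusted p = 0.0157). In Space it was at 0.781, 5.18 and 3.99 CPM, a difference of -0.85 ± 0.503 (SE, adjusted p = 0.275). The lowest values belonged to Space replicate 4, Ground replicate 5 and Ground replicate 6, the same 3 libraries in which Serpina6 took 2.18% to 3.43% of counts. Without these 3 the difference in Ground was -1.13 (adjusted p = 0.184), and without Ground replicate 5 or 6 alone it was -1.85 or -1.88 (adjusted p = 0.0641 and 0.0658). Without Ground replicate 4, the highest of the 3, it was -3.69 (adjusted p = 0.00224). The call was also lost with limma voom (0.0509), the 9 libraries of the set (0.0823) and the 6 libraries compared (0.0551). Hsph1, Hsp90aa1, Hsp90ab1 and Hspd1 had log2 differences between -0.25 and 0.18 from BDF1 in both pup groups. Dnajb1 differed by -0.04 ± 0.173 in Space and 0.48 ± 0.171 in Ground (SE, adjusted p = 0.914 and 0.0699).

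Whether the pups' difference from BDF1 was itself larger in replicates 1 to 3 than in 4 to 6 was tested as an interaction. For Space against BDF1 only Hspa1b passed, with a difference of differences of 2.54 ± 0.621 in log2 (SE, adjusted p = 0.0356), where 3.19% of genes passed. Hsph1, Dnajb1 and Hspa8 had 1.27 ± 0.35, 0.86 ± 0.239 and 0.86 ± 0.258 (SE, adjusted p = 0.058, 0.0588 and 0.0786). For Ground against BDF1 0 members passed, where 2.74% of genes did and 2317 genes had an unadjusted p under 0.05. Hsph1 had 1.31 ± 0.35 there and Hspb1 2.45 ± 0.716 (SE, adjusted p = 0.0565 and 0.079). DESeq2 called 4 members in Space and 3 in Ground. Over all runs the number of genes called ran from 221 to 1515 in Space and from 132 to 1501 in Ground. For Space against Ground 0 members and 0% of genes passed in edgeR, with 1038 genes at an unadjusted p under 0.05, and DESeq2 called none of the members. The call of Hspa1b was lost without any 1 of Space replicates 1, 2, 4 and 5 or BDF1 replicates 2, 3, 4 and 6 (adjusted p between 0.0512 and 0.0933), with limma voom (0.0729) and without the 3 libraries high in Serpina6 (0.064). Its value stayed between 2.22 and 3.13 over the alternatives.

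The members also differed between the replicate sets within a group, a comparison added after the data were seen. Replicates 1 to 3 exceeded replicates 4 to 6 for 8 of 10 members in Space, where 21.9% of genes passed, for 9 in Ground, where 18.3% passed, and for 5 in BDF1, where 14.6% passed. No member was lower. The sets differ in Xist and Y-linked counts, and sex cannot be told apart from anything else that went with the replicate number. For Hspa1b the log2 difference was 5.51 ± 0.443 in Space, 4.79 ± 0.43 in Ground and 2.97 ± 0.421 in BDF1 (SE, adjusted p = 2.99e-07, 1.03e-06 and 0.000167). For Hspa1a the summed counts were 333 against 10 in Space, 225 against 3 in Ground and 47 against 10 in BDF1, ratios at equal depth of 30.2 (95% interval 16.2 to 63.6), 59.8 (20.2 to 292) and 5 (2.49 to 11.1), from an exact binomial interval that covers counting error only. Of the 225 counts in Ground, 149 were those of Ground replicate 2. The Ground call of Hspa1a was lost with limma voom (log2 4.6, adjusted p = 0.0687).

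Dnajb1, Hsph1, Hsp90aa1 and Hspb1 differed between the sets in each of the 3 groups. Dnajb1 differed by 1.95 ± 0.174 in Space, 1.04 ± 0.169 in Ground and 1.08 ± 0.17 in BDF1 (SE). Hsph1 differed by 2.17 ± 0.257, 2.22 ± 0.257 and 0.90 ± 0.248, and Hsp90aa1 by 1.73 ± 0.235, 1.85 ± 0.236 and 0.85 ± 0.23 (SE, in the same order). The BDF1 calls of Hsph1 and Hsp90aa1 were lost without BDF1 replicate 1 or 6, that of Hsph1 also without BDF1 replicate 4 and that of Hsp90aa1 without BDF1 replicate 5 (adjusted p between 0.0626 and 0.119). Hspb1 differed by 2.58 ± 0.491, 4.74 ± 0.557 and 2.29 ± 0.455 (SE, in the same order). The Ground value of Hspb1 ranged from 3.63 to 6.19 over the alternatives, each of which kept the call, and Ground replicates 4 to 6 had only 7 to 48 counts. Hspa8 and Hsp90ab1 passed in the pups, at 1.08 ± 0.184 and 0.57 ± 0.138 in Space and 0.85 ± 0.183 and 0.61 ± 0.138 in Ground, while in BDF1 they were at 0.22 ± 0.182 and 0.23 ± 0.137 (SE, adjusted p = 0.454 and 0.294). Hspe1 passed in Ground (0.47 ± 0.112, SE, adjusted p = 0.00788). Without the 3 libraries high in Serpina6 the Ground calls of Hspe1 and Hsp90ab1 were lost (adjusted p = 0.0866 and 0.0744), while the log2 differences stayed at 0.46 and 0.57. Hspd1 passed in no group, with its estimates between 0 and 0.24. Under at least 1 other setting all 10 members were called in Space and in Ground, Hspd1 among them.

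**Figure D3:**
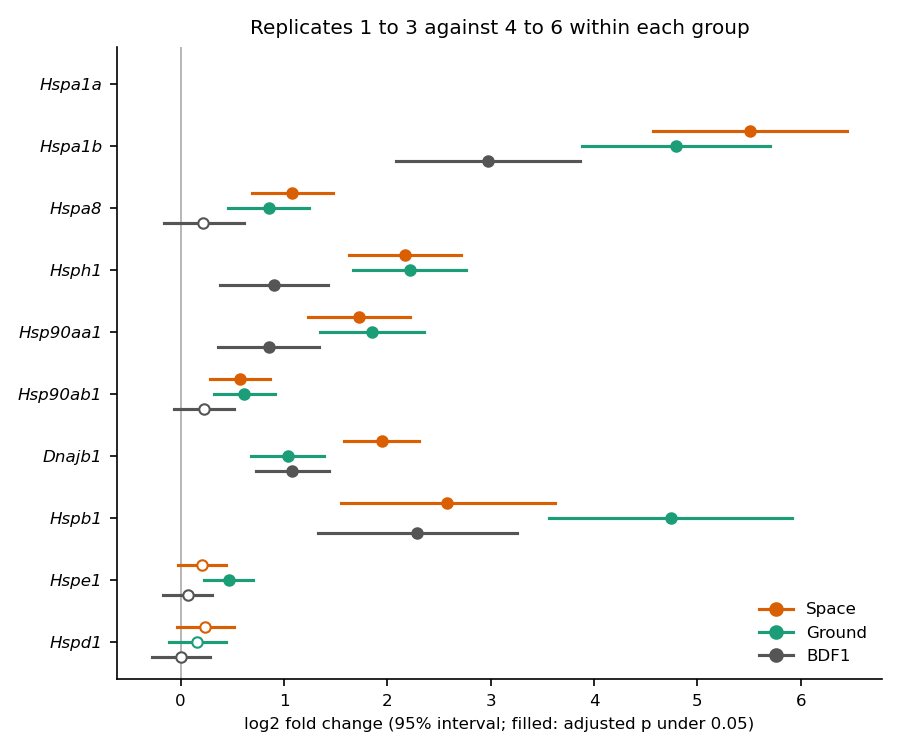
Log2 fold change of each member between replicates 1 to 3 and 4 to 6 within each group (x axis, in log2 units, with 95% intervals); filled points passed the test. Hspa1a is left out because its counts in replicates 4 to 6 were 5 or fewer. Hspa1b lies farthest right in Space, at 5.51, and Hspd1 lies at or near 0 in all 3 groups.

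With both replicate sets in a model of group and replicate set, 5 members were higher in Space than in BDF1 (Hspa1a, Hspa1b, Hspa8, Hsp90ab1 and Hspe1), where 10.0% of genes passed, and 2 in Ground (Hspa1b and Hspa8), where 11.1% passed. Hspa8 had 0.98 ± 0.165 in Space and 0.83 ± 0.164 in Ground (SE, adjusted p = 0.00187 and 0.00523). Hspa1b had 1.65 ± 0.42 and 1.38 ± 0.421 (SE, adjusted p = 0.0205 and 0.0421), means over sets in which it differed by 2.50 and -0.04 in Space. The Ground call of Hspa1b was lost in 10 of 18 fits that left out 1 library and in 4 of 10 other settings, the Space call of Hsp90ab1 in 14 of 18 and 7 of 10, and that of Hspe1 in 8 of 18 and 4 of 10, with a log2 difference of 0.04 under total-count scaling. The Space call of Hspa1b was lost with DESeq2 (adjusted p = 0.0558) and without Space replicate 2 or BDF1 replicate 2, and that of Hspa1a without Space replicate 2 or BDF1 replicate 2 or 3 (adjusted p between 0.0511 and 0.0582). Space against Ground gave 0 members and 0% of genes, with 1790 genes at an unadjusted p under 0.05 and 0 members in DESeq2. Without the replicate set in the model 1 member passed in Space, Hspa8, and 0 in Ground, and without Space replicate 2 or BDF1 replicate 2 the count in Space was 1.

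The partners of these chaperones moved in part in replicates 1 to 3. Of 24 further HSP70 and HSP40 genes and cochaperones, 4 were higher in Space than in BDF1 and 2 in Ground, and 0 were lower. Over all genes, 2.85% were higher and 1.8% lower in Space and 1.14% higher and 0.786% lower in Ground, which holds for each list in these comparisons. Stip1, the adaptor that links HSP70 to HSP90, was at 159.9, 134 and 142 CPM in Space, 138, 104 and 153 CPM in Ground and 96.1, 83.6 and 75.4 CPM in BDF1 (log2 0.77 and 0.63, adjusted p = 0.00628 and 0.0275). Dnaja1, an HSP40, had log2 differences of 0.80 and 0.59 (adjusted p = 0.00672 and 0.0473). Dnajb2, another HSP40, had 0.48 in Space (adjusted p = 0.0081) and 0.29 in Ground (adjusted p = 0.115). The fourth gene in Space was Bag3, an HSP70 exchange factor, at 0.82 (adjusted p = 0.0174), named after its value was seen. The median of the list was 0.22 in Space and 0.14 in Ground.

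Of 12 HSP90 cochaperones, 2 were higher in both comparisons and 0 lower: Cacybp (0.68 and 0.57, adjusted p = 0.0046 and 0.0232) and Chordc1 (0.62 and 0.66, adjusted p = 0.0162 and 0.0204). The medians were 0.26 and 0.19. Of 11 mitochondrial chaperones and proteases 0 passed in either direction, with medians of 0.04 and -0.05. Of 8 subunits of the cytosolic chaperonin TRiC, Tcp1 passed in Space (0.32, adjusted p = 0.0423). Of 16 chaperones of the endoplasmic reticulum, Serpinh1, the collagen chaperone, passed in both (1.52 and 1.11, adjusted p = 0.00157 and 0.0213). It was at 21.1, 16.1 and 21.8 CPM in Space, 15.7, 16.0 and 12.9 CPM in Ground and 6.18, 7.47 and 6.95 CPM in BDF1. Of 4 further small heat shock protein genes tested, 0 passed, Hspb8 having 0.49 and 0.48 (adjusted p = 0.139 and 0.196).

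Of 8 other stress genes that heat shock factors are known to act on, 2 were higher in both comparisons: Tcim (3.95 and 3.10, adjusted p = 0.0046 and 0.0266) and Slc5a3, an inositol transporter (1.20 and 1.13, adjusted p = 0.011 and 0.025). Of 7 genes of HSF1 and its regulators, 0 passed in replicates 1 to 3. Hsf1 itself stood at 16.5, 17.0 and 18.1 CPM in Space, 21.9, 19.1 and 18.1 CPM in Ground and 17.6, 15.8 and 17.6 CPM in BDF1. In replicates 4 to 6 Hsf1 was higher in Space, at 17.9, 15.4 and 15.7 CPM against 10.4, 12.0 and 14.3 CPM in BDF1 (0.41, adjusted p = 0.0322), and it had 0.33 in Ground (adjusted p = 0.0663). Hspbp1, an HSP70 exchange factor, and Fkbp4, an HSP90 cochaperone, were lower in Ground there, by -0.41 each (adjusted p = 0.0142 and 0.0465). Fkbp5, an HSP90 cochaperone of steroid receptors and a glucocorticoid-induced gene, was higher in pups: 209.6, 88.4 and 134 CPM in Space and 107, 240.3 and 233 CPM in Ground against 33.3, 31.2 and 26.9 CPM in BDF1 (log2 2.24 and 2.66, adjusted p = 0.00233 and 6e-04). Of the 8 other heat shock factor targets, 4 were higher and 0 lower in Space in replicates 4 to 6, and 4 higher and 1 lower in Ground. Over all genes 6.43% were higher and 5.49% lower in Space there, and 7.86% and 7.35% in Ground. The metallothioneins Mt1 and Mt2, which bind zinc and copper and respond to stress hormones, were higher there too, Mt1 by 3.20 and 2.96 in log2 (adjusted p = 0.00345 and 0.00365) and Mt2 by 3.48 and 2.88 (adjusted p = 0.00844 and 0.0155). Tcim was higher there as well (2.39 and 2.58, adjusted p = 0.0294 and 0.0162), at 71.7, 11.3 and 14.2 CPM in Space and 9.40, 44.1 and 56.4 CPM in Ground against 5.51, 6.00 and 6.85 CPM in BDF1, highest in the 3 libraries high in Serpina6. The ubiquitin gene Ubb was the other target higher in both (0.89 and 0.61, adjusted p = 0.00676 and 0.0341). Fkbp5 in Ground was likewise highest in replicates 5 and 6. In the same animals 2 of the 24 HSP70 and HSP40 genes were lower in both comparisons, Dnajb2 (-0.30 and -0.58) and Bag2 (-0.89 and -1.36), and 0 were higher, while 5.49% and 7.35% of all genes were lower, so the count is near the background. Of 11 mitochondrial chaperones and proteases 2 were higher in Space and 3 in Ground, where 6.43% and 7.86% of all genes were, and 0 were lower. The higher genes were the HSP70 exchange factor Grpel2 in both (1.25 and 1.20, adjusted p = 0.000266 and 0.000259), the protease subunit Clpx in both (0.67 each, adjusted p = 0.0277 and 0.0225) and Clpb in Ground (0.38, adjusted p = 0.0256). Of 8 TRiC chaperonin subunits 1, Cct6a, was lower in both (-0.30 and -0.42, adjusted p = 0.048 and 0.00798).

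The partner lists were also compared between the replicate sets. In replicates 1 to 3 against 4 to 6, 11 of the 24 HSP70 and HSP40 genes were higher and 0 lower in Space, 10 and 1 in Ground and 1 and 0 in BDF1, beside 10.4%, 8.71% and 7.33% of all genes higher. Of the 12 HSP90 cochaperones 7 were higher in Space, 7 in Ground and 4 in BDF1, and 0 were lower.

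The genes whose levels followed the members most closely were found by correlating each gene with the mean of the standardised members, over 18 libraries and after centring within the replicate set. Among the 5 most alike were Dnaja1 (r = 0.949), Cacybp (0.893), Stip1 (0.885) and Per2 (0.841). These are descriptions over libraries that share the groups. In replicates 1 to 3 the summed level of 8 macrophage markers was 79.2 to 109 CPM in Space, 82.9 to 199.6 CPM in Ground and 74.9 to 112 CPM in BDF1, and 0 of the 8 passed. Among the members, r with the mean of the others ran from 0.888 for Hsp90ab1 to 0.46 for Dnajb1 and 0.44 for Hspd1, and was -0.0382 for Hspb1.

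Clock genes, which keep time within the liver cell, were compared in the same way. Of 18 tested, 8 were higher in Space than in BDF1 in replicates 1 to 3, where 2.85% of all genes were, 4 were higher in Ground, where 1.14% were, among them Per2, Per3 and Tef, and 0 were lower. Per2, a repressor of the clock, was at 31.4, 18.7 and 29.1 CPM in Space, 24.1, 28.2 and 27.7 CPM in Ground and 7.07, 5.27 and 5.01 CPM in BDF1 (log2 2.19 and 2.2, adjusted p = 0.00033 and 0.00115). Per3 had 2.46 and 1.96 (adjusted p = 0.00191 and 0.019), Tef 1.21 and 0.75 (adjusted p = 0.000808 and 0.0305) and Dbp 2.10 and 1.60 (adjusted p = 0.011 and 0.0689). In replicates 4 to 6 Per3 was lower in both pup groups, by -1.11 and -1.01 (adjusted p = 0.0123 and 0.0148), and Dbp was lower in Ground (-0.99, adjusted p = 0.0312). These were the clock genes lower there, and 2 of the 18 were higher in each pup group, Npas2 and Arntl in Space and Clock and Hlf in Ground, named after their values were seen. Over all genes 6.43% were higher and 5.49% lower in Space, and 7.86% and 7.35% in Ground.

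Between the replicate sets, 4 of the 18 clock genes were higher in replicates 1 to 3 and 6 lower in Space, 7 higher and 7 lower in Ground, and 5 higher and 10 lower in BDF1. Over all genes 10.4% were higher and 11.6% lower in Space, 8.71% and 9.59% in Ground, and 7.33% and 7.29% in BDF1. Per2 differed by 0.49 in Space (adjusted p = 0.186), 0.84 in Ground (adjusted p = 0.0295) and -1.73 in BDF1 (adjusted p = 0.000437). Dbp, a transcription factor with a steep daily rhythm, was at 0.836 to 6.02 CPM in the 9 libraries of replicates 1 to 3 and at 72.1 to 206 CPM in those of replicates 4 to 6. Its log2 difference between the sets was -4.65 in Space, -4.90 in Ground and -7.49 in BDF1 (adjusted p = 1.67e-07, 1.03e-07 and 1.03e-08), opposite in sign to the called members. The cold-inducible RNA-binding protein genes, 3 of which were tested, had 0 members that passed between pups and BDF1 in either set. Between the sets, 2 of the 3 in Space, 1 in Ground and 2 in BDF1 were lower in replicates 1 to 3: Srsf5, a splicing factor, in each group (-1.05, -0.71 and -0.99, adjusted p = 0.00187, 0.0228 and 0.00396) and Cirbp in Space and BDF1 (-0.90 and -0.68, adjusted p = 0.00662 and 0.035), opposite in sign to the called members. The part of clock phase in the chaperone differences was not tested, since the sources used here give no time of collection. Of 12 immediate early genes tested, which respond to handling and stress, Atf3 was higher in Ground in replicates 1 to 3 (2.61, adjusted p = 0.0381) at 0.897 to 7.19 CPM, and 0 passed in Space. Between the sets, 5 of the 12 were lower in replicates 1 to 3 in Space and 3 in BDF1, with 0 higher, and 2 were higher in Ground, Atf3 and Zfp36, with 0 lower.

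**Figure D4:**
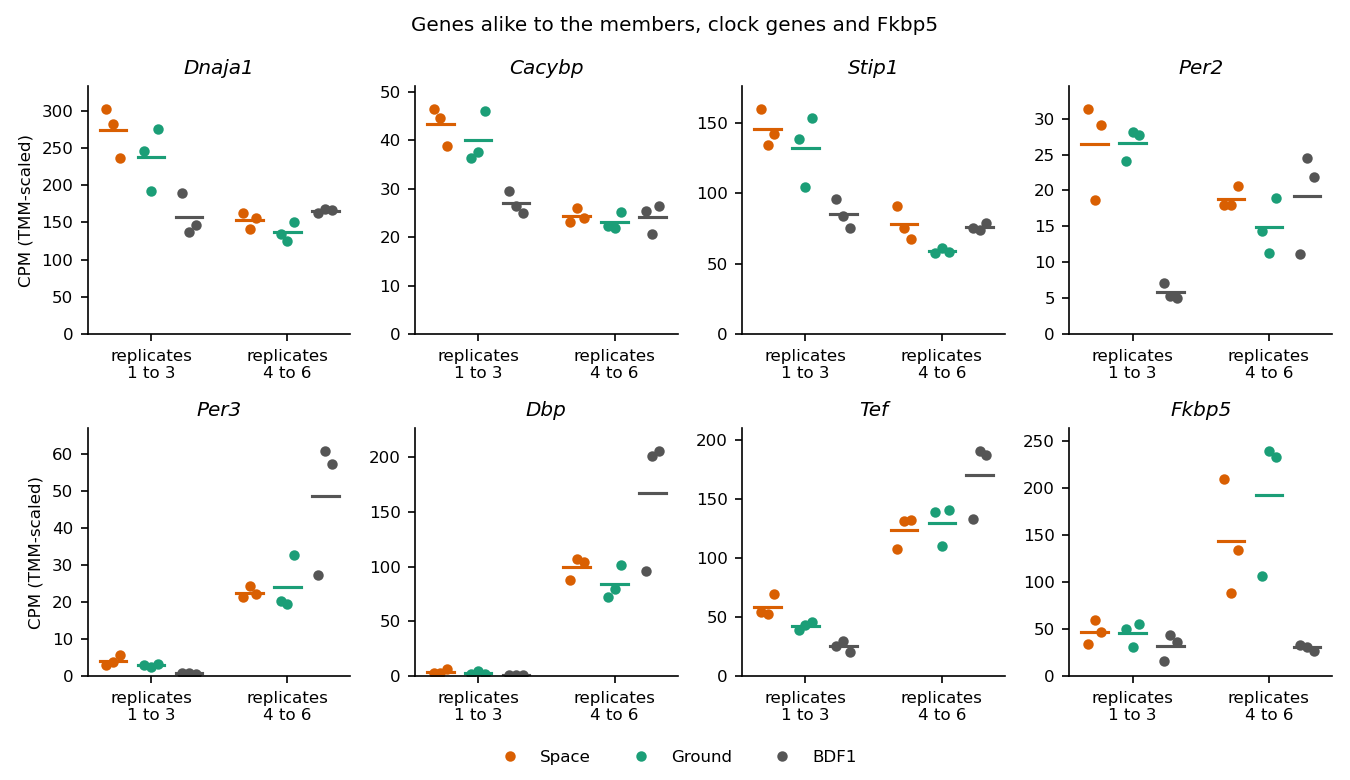
Level in CPM (y axis, from 0, a scale for each gene) of 4 of the genes most alike to the members (Dnaja1, Cacybp, Stip1 and Per2) and of Per3, Dbp, Tef and Fkbp5 in every library; points are libraries and lines are means of 3. Per2 lies at 18.7 to 31.4 CPM in pups and 5.01 to 7.07 CPM in BDF1 in replicates 1 to 3, Dbp reaches 72.1 CPM or more only in replicates 4 to 6, and Fkbp5 is highest in pups of replicates 4 to 6.

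Marker lists of other cells were set beside the chaperones in replicates 1 to 3, and single markers are named with their values already known. The hepatocyte list summed to 93717 to 94669 CPM in Space, 74958 to 92627 CPM in Ground and 61414 to 75631 CPM in BDF1, with 0 of 8 markers passing. The erythroid list summed to 239 to 363, 256 to 364 and 182 to 297 CPM, with 0 of 5 tested markers passing. The lymphocyte list summed to 13.2 to 24.3, 8.13 to 13.8 and 5.99 to 8.07 CPM, with 1 of 4 tested markers, Ighm, higher in Space (2.35, adjusted p = 0.0126). The stellate cell list summed to 211 to 241, 177 to 214 and 138 to 165 CPM, with 1 of 8 markers, Dcn, higher in Space (0.61, adjusted p = 0.0187). The endothelial list summed to 80.3 to 90.7, 94.6 to 154 and 106 to 124 CPM, with 1 of 8, Stab2, higher in Ground (0.90, adjusted p = 0.0245). The cholangiocyte list summed to 23.0 to 29.4, 21.1 to 37.1 and 24.3 to 30.9 CPM, with 1 of 5 tested, Sox9, lower in Space (-1.09, adjusted p = 0.0193). The part of these cells in the chaperone differences was not tested. In replicates 4 to 6, 4 of 5 tested erythroid markers, the globin genes Hbb-bs, Hbb-bt, Hba-a1 and Hba-a2, were higher in both pup groups, and the part of blood content in the values of those animals was not tested. Of the pancreatic acinar list 1 gene was tested, Cela1. It was lower than BDF1 in replicates 4 to 6 (-1.29 and -1.95, adjusted p = 0.00182 and 8.06e-05) and higher in replicates 1 to 3 than in 4 to 6 in Space and Ground (1.75 and 2.06, adjusted p = 2.94e-05 and 8.04e-06). Of the 8 macrophage markers, Clec4f, Marco and Cd5l were lower in replicates 1 to 3 than in 4 to 6 in Space (-1.08, -2.69 and -1.11, adjusted p = 0.0124, 0.0154 and 0.0346), where 11.6% of all genes were. The summed list was at 79.2 to 109 CPM against 153 to 201 CPM in Space. The sets overlapped in Ground (82.9 to 199.6 against 132 to 219 CPM) and in BDF1 (74.9 to 112 against 73.6 to 164 CPM). The part of macrophages in the chaperone values was not tested either. Haploid germ cell markers summed to 54.3 CPM in Space replicate 6 and to at most 6.37 CPM in the other libraries.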

How the data were processed

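RNA from the liver of 18 mice was sequenced after stranded mRNA library preparation. The labels and the study's methods name different Illumina stranded kits. The methods describe single reads for RNA-seq in general, and the read layout of these libraries is not in the labels. Per the labels, the authors' processing used bcl2fastq 2.20, cutadapt 4.6, HISAT2 2.2.1 and HTSeq 2.0.2 with mm10, and the deposited table holds whole-number counts of reads for each gene, not normalised. The counting mode and strand setting are not given in the sources used here. Of 32285 genes, 13356 passed edgeR's filterByExpr. Quasi-likelihood fits (edgeR 4.0.16, R 4.3.3, TMM scaling) had a mean for each group within replicates 1 to 3 and 4 to 6, and p-values were adjusted by Benjamini-Hochberg over all tested genes with a threshold of 0.05. Total counts were 15407450 to 20562351 per library. DESeq2 1.42.0 and limma 3.58.1 served as alternatives, with other scalings, filters, sample sets and each library left out. The labels call the samples biological replicates. The study's text mentions 3 wild-type mice, whereas the labels and the count table hold 6 BDF1 samples, all used here. No 2 replicates agreed within sampling noise (lowest chi-square per gene 10.46). Tested on simulated data for Space against BDF1 in replicates 1 to 3, 62% of 200 genes changed 2-fold and 91% of 200 changed 4-fold were recovered.

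The members and gene lists were chosen with earlier results of these data known. All members are named, and from each pathway list up to 4 genes called in most of the 4 pup comparisons with BDF1, or otherwise the most abundant, and the 5 genes most alike, apart from items not reported here. Comparisons between replicate sets, and leaving out 3 libraries high in Serpina6, were added after the data were seen. Intervals are 95%.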

Additional observations from a re-analysis of the deposited data

Results flagged for a closer look

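Hspa1a in Ground replicate 2 stood at 7.86 CPM, far from the other 5 Ground libraries, of which the next was at 1.98 CPM. Of 30 combinations of member and group examined this was 1. The rule took the 6 libraries of a group as 1 population, and its rate by chance is then about 1 in 20. Hspa1a differed between the replicate sets, with 0 to 2 counts in Ground replicates 4 to 6, so that rate need not hold here. For Hspa1b, the difference between Space and BDF1 was larger in replicates 1 to 3 than in replicates 4 to 6 by 2.54 in log2 (edgeR, adjusted p = 0.0356). The call was lost in 8 of 18 fits that left out 1 library, with limma voom (2.61, adjusted p = 0.0729) and without the 3 libraries high in Serpina6 (2.27, adjusted p = 0.064).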

How the results depend on the processing

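Of 41 called member values, 22 kept their call in every alternative run, 27 kept it in those that left no single library out, and 0 reversed. The number called among all 13356 tested genes also moved between runs. Against BDF1 it ran from 201 to 2369 (Space) and 35 to 1097 (Ground) in replicates 1 to 3. In replicates 4 to 6 it ran from 570 to 4978 and from 826 to 6136. The highest numbers in replicates 4 to 6 came with total-count scaling, with 337 and 402 genes called as higher. Counts of members called follow, to be read beside these numbers. For Space against BDF1 in replicates 1 to 3 they ranged from 5 (total-count scaling) to 9 (6 libraries compared, where Hspb1 passed as lower). With total-count scaling they were 2 (Space) and 5 (Ground) against BDF1 in replicates 4 to 6, 4 and 7 for the difference between sets, and 3 and 1 over both sets. With DESeq2 they were 6 for Ground against BDF1 in replicates 1 to 3, 1 and 2 in replicates 4 to 6, 1 for Space against Ground in replicates 4 to 6, and 4 and 3 for the difference between sets. With limma voom, replicates 1 to 3 gave 5 (Ground, BDF1) and 3 (Space, Ground), and the other counts were 1 and 2 against BDF1 in replicates 4 to 6, 4, 2 and 1 (Space against Ground) for the difference between sets, and 4 for Ground over both sets. With no filter they were 3 and 2 for the difference and 3 for Space over both sets. With a mean of at least 5 CPM they were 1 and 2 in replicates 4 to 6 and 1 for the difference in Ground. With 9 or 6 libraries fitted, Ground against BDF1 in replicates 4 to 6 gave 0. Without the 3 libraries high in Serpina6 it gave 0, replicates 1 to 3 gave 5 in Ground, and the difference in Space gave 3, Hspa1b not among them. With group alone, both sets gave 1 and 0. Between the replicate sets the counts ran from 7 to 10 in Space and in Ground and from 5 to 6 in BDF1. The cause of these shifts was not tested.

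Leaving out each library in turn, the counts ranged from 3 to 8 and 1 to 5 against BDF1 in replicates 1 to 3 (Space: 3 without Space replicate 1 or BDF1 replicate 3, 4 without Space replicate 2 or BDF1 replicate 2; Ground: 1 without BDF1 replicate 2, 5 without Ground replicate 2), 0 to 1 and 0 to 3 in replicates 4 to 6, 0 to 3 and 0 to 3 for the difference, 8 to 8, 9 to 9 and 3 to 6 between sets in Space, Ground and BDF1 (3 without BDF1 replicate 1 or 6), and 1 to 5 and 1 to 2 over both sets. After the mean of each group and set was removed, samples sharing a number had r from -0.601 to 0.251, with 3 of 18 pairs over 0.1. Samples with different numbers had r from -0.331 to 0.501, with 9 of 36 pairs over 0.1. Whether samples sharing a number also shared a litter or handling cannot be told from these values. With the replicate block, 6 and 2 members were called against BDF1 in replicates 1 to 3, and 3 and 1 over both sets. Hspa1a in replicates 4 to 6 was not measurable beyond a few counts at this depth.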
